A study of Homo sapiens with 18 samples.

Results

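Acis-only peaks are regions of open chromatin that were called in cisplatin-resistant Acis cells, both without treatment and after cisplatin, and in neither condition of the A2780 cells from which Acis was derived. They were selected on the deposited peak lists: a peak of the Acis control list was kept if it overlapped a peak of the Acis cisplatin list by at least 1 bp and no peak of the A2780 control or A2780 cisplatin list. This gave 2145 of the 24485 Acis control peaks (8.76%), against 118944 peaks over the 4 lists. Absence from the A2780 lists was therefore used to choose them, and no value below tests it.

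A2780 is a human ovarian carcinoma cell line that is sensitive to cisplatin. Acis (A2780cis) is its resistant derivative, selected by chronic exposure to the drug and kept in culture with 1 µM cisplatin every 3 passages. Each line was profiled without treatment (control) and after 3 h in 200 µM cisplatin, which gives the groups A2780 control, A2780 cisplatin, Acis control and Acis cisplatin, with 3 RNA-seq libraries in each. ATAC-seq was deposited as 1 peak list per condition, made from 3 replicates in the controls and 2 after cisplatin, on cells treated with DNase beforehand. Since there is 1 line of each kind, differences between Acis and A2780 cannot be told apart from differences between these cultures, and the maintenance dose was given to Acis alone.

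ATAC-seq uses a transposase that inserts sequencing adapters where DNA is not covered by nucleosomes, so its peaks mark promoters, enhancers and insulators in use. Promoters of widely expressed genes are open in most cells and are rich in CG dinucleotides, whereas enhancers lie at a distance from the genes they act on, bind transcription factors specific to the cell state and differ far more between cells. Cisplatin forms adducts with purines in DNA, which are removed by nucleotide excision repair, and a line that has survived many rounds of it can carry lasting changes in its chromatin.

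The sequences of several Acis-only peaks are shown first, because they display the kinds of element described afterwards. Each is the forward strand of hg38 over 200 bp centred on the summit, the position of highest signal, and was read from the reference genome and not from the reads. Capitals mark some of the letters that were searched for on both strands. The others, counted further below, are not marked even where they occur. Those marked are TGANTCA, which dimers of the AP-1 family bind, and GGAATG, which factors of the TEAD family bind. TTGGCA stands for the NFI family and TTGCNNAA for the C/EBP family of factors. AGATAAG stands for the GATA family. The first 3 are among the members with the highest -log10 q, the MACS2 measure of confidence in a peak. They lie between genes at chr3:94361084-94361283, chr7:15892706-15892905 and chr6:104295948-104296147, all farther than 50 kb from the nearest annotated 5' end of a gene.
chr3 member: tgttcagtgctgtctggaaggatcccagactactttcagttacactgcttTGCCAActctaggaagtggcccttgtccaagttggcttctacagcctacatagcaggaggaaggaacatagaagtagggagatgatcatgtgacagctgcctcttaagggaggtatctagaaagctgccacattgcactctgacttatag
chr7 member: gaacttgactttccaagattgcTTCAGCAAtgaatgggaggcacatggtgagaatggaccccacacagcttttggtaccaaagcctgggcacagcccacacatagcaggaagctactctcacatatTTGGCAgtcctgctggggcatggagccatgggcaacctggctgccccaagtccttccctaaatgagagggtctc
chr6 member: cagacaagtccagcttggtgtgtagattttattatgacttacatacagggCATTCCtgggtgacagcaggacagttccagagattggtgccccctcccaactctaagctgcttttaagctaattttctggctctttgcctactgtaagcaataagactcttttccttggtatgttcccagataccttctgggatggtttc

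The next 3 lie near genes whose RNA is described below: in an intron 15227 bp upstream of the 5' end of TDO2 at chr4:155839411-155839610, in an intron of PDGFC at chr4:156968667-156968866, and upstream of FILIP1 at chr6:75524501-75524700. Of the marked letters, the TDO2 window holds an AP-1 match 70 bp after the summit and a GATA match 40 bp before it. The PDGFC and FILIP1 windows hold 1 TEAD match each.
TDO2 member: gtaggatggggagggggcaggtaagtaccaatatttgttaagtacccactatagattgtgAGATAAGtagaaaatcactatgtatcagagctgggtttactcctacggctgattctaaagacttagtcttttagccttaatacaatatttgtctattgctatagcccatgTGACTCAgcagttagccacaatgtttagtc
PDGFC member: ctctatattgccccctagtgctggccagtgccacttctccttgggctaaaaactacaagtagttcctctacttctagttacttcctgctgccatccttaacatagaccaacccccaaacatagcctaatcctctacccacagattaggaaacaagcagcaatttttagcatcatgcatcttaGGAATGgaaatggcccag
FILIP1 member: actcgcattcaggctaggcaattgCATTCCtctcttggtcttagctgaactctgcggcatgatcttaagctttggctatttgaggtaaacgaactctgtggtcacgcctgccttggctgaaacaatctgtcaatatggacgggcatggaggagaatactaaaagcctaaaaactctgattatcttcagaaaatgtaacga

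The last pair are windows upstream of the 5' ends of HMX1, at chr4:8872074-8872273, and of GALNT17, at chr7:71131249-71131448. They differ from the others in base composition, with 70.0% and 64.0% G or C, against 39.5% in the TDO2 window. Of the letters marked in capitals, only the GALNT17 window has a match, a TEAD match. The letters GGGCGG, counted further below and not marked here, are in both windows when both strands are read.
HMX1 member: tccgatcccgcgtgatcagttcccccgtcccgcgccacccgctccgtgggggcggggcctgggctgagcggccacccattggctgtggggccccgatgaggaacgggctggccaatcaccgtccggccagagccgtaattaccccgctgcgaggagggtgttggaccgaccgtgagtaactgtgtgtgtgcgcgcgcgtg
GALNT17 member: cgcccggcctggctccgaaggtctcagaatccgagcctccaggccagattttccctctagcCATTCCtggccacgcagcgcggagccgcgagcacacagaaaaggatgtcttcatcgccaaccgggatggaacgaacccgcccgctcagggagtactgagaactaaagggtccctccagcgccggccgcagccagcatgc

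Acis-only peaks were weaker than most peaks of their list. Their fold enrichment over the local background had a median of 6.54 in Acis control, with quartiles of 4.68 and 9.19 and a range of 2.0 to 27.0, whereas the median over all Acis control peaks was 12.8 and that of the 17746 peaks found in all 4 lists was 15.1. The counterpart set, 4652 A2780 control peaks that overlapped an A2780 cisplatin peak and no Acis peak, had a median of 7.98. The median -log10 q was 60.8 in Acis-only peaks and 96.8 in the whole list. In the counterpart set it was 44.3, so by this measure that set was the lower. The median width of 662 bp was close to the 619 bp of the list. These are descriptions of single lists with no replicate spread, so no test was made of them.

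The strongest members by -log10 q were far above these medians. The highest value, 958, belonged to the chr3 peak shown above, at chr3:94360693-94361418, with a fold enrichment of 14.4 in Acis control and 18.7 in Acis cisplatin. The next was 812, at chr1:246429505-246430633 in an intron of SMYD3, a lysine methyltransferase, where an A2780 peak ended 358 bp away. Of the 10 highest, 3 were nearest to genes with RNA in the table (SMYD3, WDR72 and the lncRNA ENSG00000254394), and 5 had no annotated 5' end within 100 kb.

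At the edge of the rule, the smallest overlap of a member with its Acis cisplatin peak was 126 bp, and 181 members had less than 50% of their width in it. The smallest gap from a member to an A2780 peak was 121 bp, and 203 members had an A2780 peak within 1 kb. On the other side of the rule, the smallest overlap of an excluded Acis peak with an A2780 peak was 103 bp. Most members were well apart from any A2780 peak, with a median gap of 18969 bp and 492 members over 100 kb away.

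The rule required a peak in both Acis lists, and fold enrichment in Acis cisplatin closely followed that in Acis control. The median was 7.01 after cisplatin, the median log2 ratio of cisplatin over control was 0.0854, and 1299 members (60.6%) were higher after cisplatin. Over all 21571 Acis control peaks with an Acis cisplatin peak, the median log2 ratio was -0.064 and 38.4% were higher. The ratio was at least 2-fold up in 14 members and at least 2-fold down in 5. The largest log2 ratio, 3.4, came from the peak at chr3:51942919-51943222, within 1 kb of the 5' end of PARP3. Its fold enrichment was 2.27 in control and 24.0 after cisplatin. Each member took the value of the Acis cisplatin peak that overlapped it most, and an A2780 peak also lay in the start window of PARP3. With 1 list per condition the error of such a ratio is unknown.

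**Figure D1:**
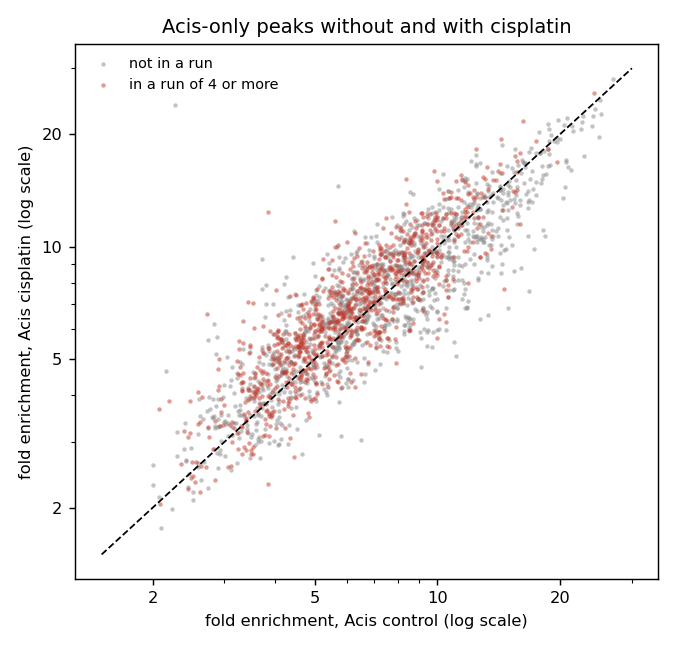
Fold enrichment of the 2145 Acis-only peaks in the Acis control list (x axis, log scale) and of the overlapping peak in the Acis cisplatin list (y axis, log scale), with peaks that lie in runs of 4 or more consecutive members in red, the others in grey and equality as a dashed line. Most points lie along the line, with medians of 6.54 and 7.01, and the point far above it at 2.27 and 24.0 is the peak near PARP3.

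Acis-only peaks lay far from genes' starts. Only 161 (7.51%) overlapped the 2 kb centred on an annotated 5' end, 1072 had their summit in an intron, 814 (37.9%) between genes and 98 (4.57%) in an exon. In the whole Acis control list 40.5% were within 1 kb of a 5' end, and in A2780-only peaks 20.4%. The median distance from summit to the nearest 5' end was 41575 bp in Acis-only peaks, 15772 bp in A2780-only peaks, 5356 bp in the whole list and 1119 bp in peaks found in all 4 lists. Peaks private to either line were thus more distal than shared ones, and those of Acis had the larger median.

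**Figure D2:**
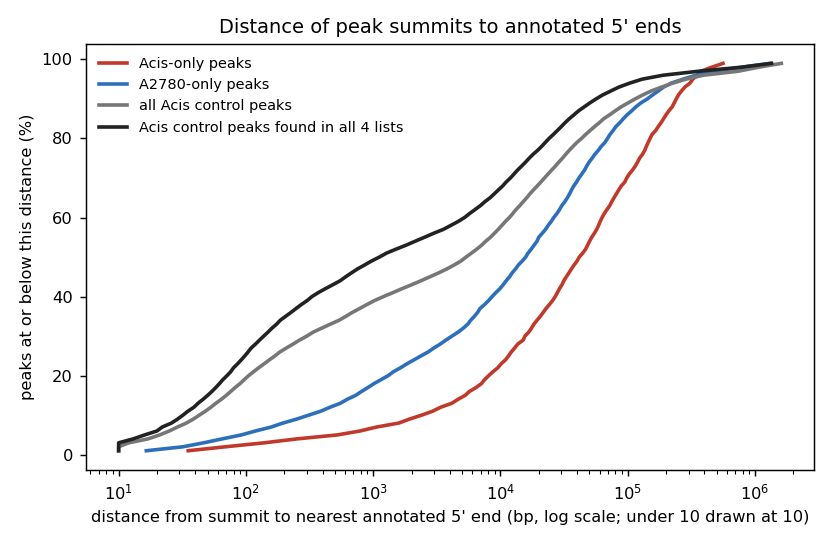
Cumulative share of peaks (y axis, %) by the distance of their summit to the nearest annotated 5' end of a protein-coding or lncRNA gene (x axis, bp, log scale), for Acis-only peaks (red), A2780-only peaks (blue), all Acis control peaks (grey) and peaks found in all 4 lists (black). The red curve lies farthest to the right over most of its range, with a median of 41575 bp against 1119 bp for the shared peaks.

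Members were unevenly spread over the chromosomes. They made up 18.4% of the Acis control peaks on chromosome 4 (195 of 1062), 14.7% on chromosome 7, 14.3% on chromosome 18 and 13.7% on chromosome 3, but 2.3% on chromosome 22 and 1.11% on chromosome 19 (16 of 1440), which is dense in genes. The share of A2780-only peaks in the A2780 control list varied less, from 9.99% on chromosome 22 to 17.5% on chromosome 18, apart from chromosome 13 with 28.0%. The RNA of all tested genes on chromosome 4 had a median log2 fold change between Acis control and A2780 control of -0.0527, and that of chromosome 7 was -0.043. Chromosomes 8 and 13 stood apart, with medians of 0.211 and -0.764 over 507 and 239 genes. Members made up 12.9% and 12.5% of the peaks there.

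Many members were neighbours in the list. Scanning the Acis control list along each chromosome, 139 runs of at least 4 consecutive peaks consisted of members alone, and they held 939 members (43.8%). The longest had 26 peaks, and 23 runs had at least 10. A2780-only peaks formed 42 such runs in their own list, with 191 peaks (4.11%) and at most 8 in a run. Runs spanned a median of 47.9 kb, but consecutive peaks of the list need not be close, and the widest run had 6 peaks over 5190 kb. No A2780 peak lay inside 115 of the 139. The rule in large part fixes this, since members overlap no A2780 peak and only the stretches between them could hold one. In 100 runs there was no annotated 5' end of a protein-coding or lncRNA gene.

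Members in runs were wider than the others at like confidence, and at lower confidence they were also flatter. Among peaks with a -log10 q of 30 to 60, the median fold enrichment was 5.02 in 261 members in runs, 7.58 in 380 other members and 10.1 in 4235 other Acis control peaks, and the median widths were 675, 504 and 522 bp. From 60 to 100 the medians of fold enrichment were 5.7 in runs and 7.54 out of runs. At higher confidence those in runs were not lower, with 7.17 against 7.08 from 100 to 200 and 8.6 against 8.34 from 200 to 400, and both were under the 15.5 and 18.4 of other peaks.

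The run of 26 peaks covered 764 kb at chr4:155405844-156169433, with fold enrichments of 3.55 to 13.2. It holds the genes for both subunits of soluble guanylate cyclase, the receptor for nitric oxide (GUCY1A1 and GUCY1B1), and TDO2, which encodes tryptophan dioxygenase. The next, of 20 peaks, lay on the same arm at chr4:156598043-157979346 and holds PDGFC, a growth factor of the PDGF family, and GLRB, a glycine receptor subunit. Another 16 peaks at chr4:57043471-57160576 lie around the 5' end of IGFBP7, a secreted protein that binds insulin-like growth factors. Runs of 17 and 16 peaks lie at chr3:117392700-117621439 and chr3:116817301-117286157, where the latter holds the start of LSAMP, a neuronal adhesion protein. A run of 20 peaks at chr8:137123023-137847643 and a run of 16 at chr6:140259892-140661287 hold no tested gene.

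**Figure D3:**
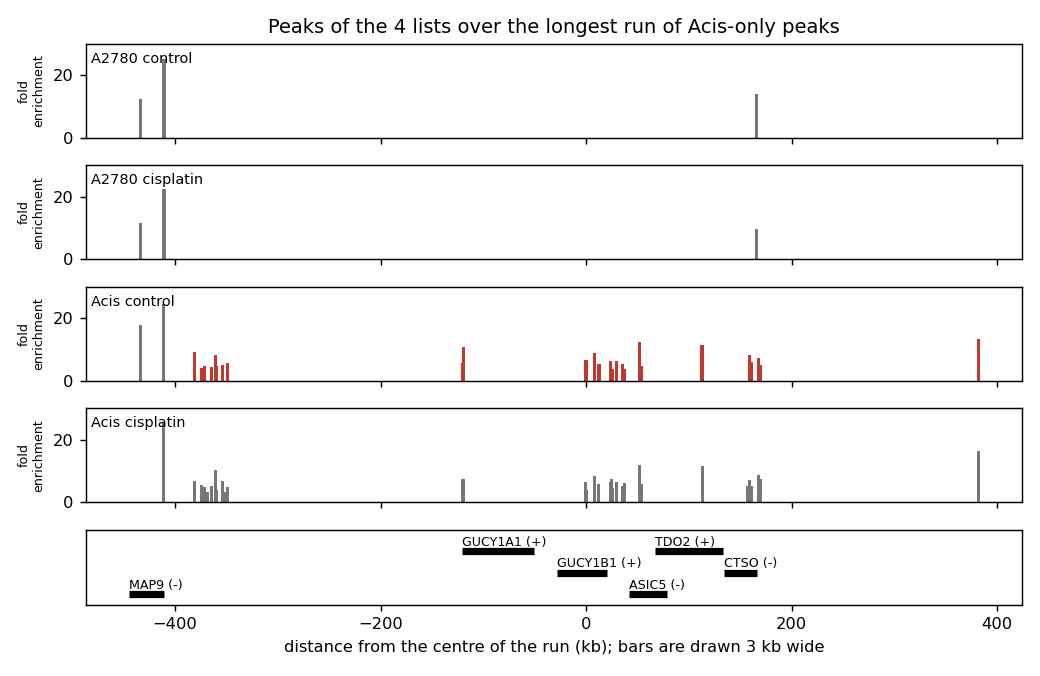
Peaks of the 4 lists over the run of 26 Acis-only peaks and 100 kb on each side, with the distance from the centre of the run in kb (x axis), fold enrichment (y axis, bars drawn 3 kb wide, members in red) and protein-coding genes as black bars with their strand. Both A2780 lists have a single peak inside the run, near CTSO, whereas both Acis lists have peaks in clusters over the 764 kb. By the rule that chose them, members overlap no A2780 peak.

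The sequence of Acis-only peaks differed from that of shared peaks. Over the 200 bp about the summit, in peaks beyond 1 kb of a 5' end, the mean G+C content was 45.4% (SD 7.73) in 1984 Acis-only peaks, 52.5% (SD 9.32) in 3701 A2780-only peaks and 57.0% (SD 9.15) in 8656 peaks found in all 4 lists. The median ratio of observed to expected CG dinucleotides was 0.185, 0.278 and 0.411 in the same order. The 161 members near 5' ends had 60.2% G+C, against 64.1% in shared peaks near 5' ends.

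Short letters that transcription factors bind were counted in the same windows, on both strands, with 95% Wilson intervals that cover counting error only. NFI letters (TTGGCA) were present in 17.7% of distal Acis-only peaks (interval 16.1 to 19.4), 8.89% of A2780-only peaks (8.01 to 9.85), 9.37% of shared peaks and 10.9% of all distal Acis control peaks. NFI factors are expressed in many tissues. The AP-1 letters TGANTCA, bound by FOS and JUN dimers, were present in 9.48% (8.26 to 10.8), 7.19% (6.4 to 8.06), 4.42% and 5.46% in the same order. TEAD letters (GGAATG), bound by the partners of YAP in the Hippo pathway, stood at 18.4%, 14.3%, 11.3% and 13.2%, C/EBP letters (TTGCNNAA) at 11.1%, 6.75%, 5.89% and 7.23%, and GATA letters (AGATAAG) at 4.39%, 2.05%, 1.01% and 1.8%. A match shows only that the letters are in the window.

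Letters rich in G and C went the other way. The CTCF core (AGGGGGC), part of the site of the insulator protein CTCF, was found in 3.38% (2.67 to 4.27) of distal Acis-only peaks, 11% of A2780-only peaks, 15.8% of shared peaks and 12.8% of all distal Acis control peaks. The SP and KLF box (GGGCGG) of promoters was found in 4.13%, 13.2%, 24.4% and 17.6%. NRF1 letters (GCGCATGCG) occurred in 0 of the 1984 windows, with an upper limit of 0.193%, and in 0.762% of shared ones. Letters of the p53 site (CATGNCC) did not differ beyond counting error, at 10.1% (8.88 to 11.5) in Acis-only, 10.5% in A2780-only and 9.97% in shared peaks.

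Since base composition differs between the sets, shares were also counted among distal windows with 40 to 50% G+C (1031 Acis-only, 1270 A2780-only and 1433 shared). There NFI letters were in 18.6% (16.4 to 21.1) of Acis-only peaks against 10.7% (9.12 to 12.5) and 10.4% (8.92 to 12.1), GATA letters in 4.95% (3.78 to 6.45) against 2.68% (1.92 to 3.72) and 1.67% (1.13 to 2.48), and the CTCF core in 1.94% (1.26 to 2.98) against 4.72% (3.69 to 6.03) and 7.47% (6.22 to 8.94). The AP-1 share of 9.89% (8.22 to 11.9) had an interval that overlapped those of A2780-only peaks, 9.45% (7.96 to 11.2), and of shared peaks, 7.05% (5.83 to 8.49), and the intervals for TEAD, C/EBP and the SP and KLF box overlapped those of shared peaks in this bin. The NFI, GATA and CTCF intervals did not overlap those of shared peaks in this bin. Within it the mean G+C content was 44.2% in Acis-only and 45.3% in shared peaks. The median ratio of observed to expected CG dinucleotides was 0.168 and 0.292. No motif share was tested, and the part of base composition in these differences was not tested.

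RNA-seq, which the rule did not use, was then read at genes linked to Acis-only peaks. Total counts were 4130644 to 5072216 per library, and 15760 of the 23622 genes of the count table passed edgeR's filter on low counts. In each group at least 1 pair of replicates agreed within counting noise, so the spread behind the p-values may be technical. In bulk RNA, more cells that express a gene and more RNA per cell cannot be told apart. Of 12 markers of epithelial and ovarian carcinoma cells, 3 were analysed, and among them EPCAM and KRT8 had means of at most 4.17 and 17.2 normalized counts in any group, while KRT18 was at a mean of 25.5 in A2780 control and 143 in Acis control. Of 12 markers of other cell types 4 were analysed, and their summed counts were 653 to 673 in the A2780 control libraries and 26.6 to 28.6 in those of Acis control, mostly the smooth muscle actin gene ACTA2. The macrophage marker CD68 had a mean of at most 5.44 in any group, and the lymphocyte, endothelial and erythroid markers on the list were not analysed here. The part of these differences in the results below was not tested.

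Genes were linked in 2 ways. A start gene has a member in the 2 kb centred on its annotated 5' end, and a linked gene has the 5' end nearest to a member's summit within 100 kb. There were 186 start genes (161 peaks) and 734 linked genes (1507 peaks, 70.3% of members), of which 528 were linked to 1 member alone. In the table were 154 and 456 of them, and 125 and 363 were tested.

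Genes with an Acis-only peak at their start had mostly higher RNA in Acis. In the untreated cells, 75 of 125 tested start genes (60.0%) were called higher, against 6.99% of all tested genes, and 8 (6.4%) were called lower, against 12.2%. Genes were called at an adjusted p under 0.05 where the log2 fold change was 1 or more in size, by edgeR's quasi-likelihood test. The median log2 fold change was 1.42 in start genes and -0.0104 in all tested genes. With no filter on low counts, 86 of the 154 start genes in the table (55.8%) were called higher and 9 lower, against 6.14% and 12.5% of all genes of the table. For start genes of A2780-only peaks the counts were 27 higher and 248 lower of 602.

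The presence of an A2780 peak in the same start window went with a smaller difference, a split made after the values were seen. Of 86 tested start genes without such a peak, 60 (69.8%) were higher and 4 lower, with a median log2 fold change of 2.16. Of 39 with one, 15 (38.5%) were higher and 4 lower, with a median of 0.445.

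**Figure D4:**
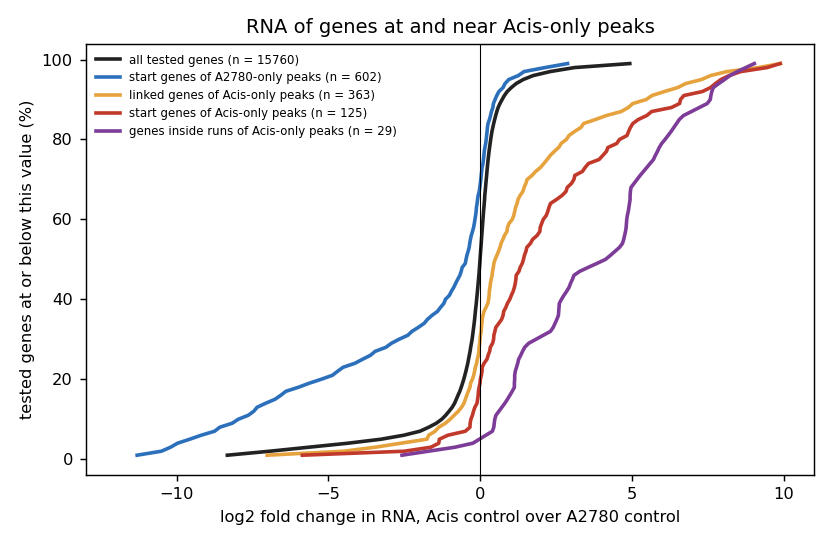
Cumulative share of tested genes (y axis, %) by the log2 fold change of RNA in Acis control over A2780 control (x axis), for all tested genes (black), start genes of A2780-only peaks (blue), and linked genes (yellow), start genes (red) and genes inside runs (purple) of Acis-only peaks. The curves of the last 3 lie to the right of the black one, with medians of 0.487, 1.42 and 4.12 against -0.0104.

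The start genes with the largest rises went from no or almost no counts to many. ENSG00000287853, a lncRNA gene at chr20:34132270-34136485, had 0 counts in all A2780 libraries, 377, 386 and 383 normalized counts in Acis control and 380, 374 and 375 in Acis cisplatin. It was at least 391-fold higher in Acis control, against a floor of 3 counts over the A2780 group (adjusted p = 1.27e-21, edgeR). It had 3 linked members, and that at its start, chr20:34131387-34132439, had a fold enrichment of 4.14.

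HMX1, a homeobox factor of the developing head and sensory neurons (chr4:8846076-8871839), had 0 counts in the 3 A2780 control libraries and 143, 118 and 114 in Acis control, at least 128-fold more (adjusted p = 4.21e-17, edgeR). Its upstream peak, shown above, had the fold enrichment 19.6, and the nearest A2780 peak was 24108 bp away. GALNT17 (chr7:71132144-71713600), which encodes a member of the enzyme family that starts O-linked glycosylation, had 0 counts in A2780 control and 98.7, 100.0 and 83.2 in Acis control, at least 96.4-fold more (adjusted p = 2.85e-16, edgeR). Its relative GALNT18 (chr11:11270877-11622005) had 1.86, 0.0 and 0.0 in A2780 control and 243, 213 and 227 in Acis control, a ratio of 349 with a 95% counting interval of 96.2 to 2889. At GALNT18 an A2780 peak also lay within the start window, 469 bp from the member.

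RALYL, which encodes an RNA-binding protein, had 0.932, 0.0 and 0.0 in A2780 control and 297, 285 and 272 in Acis control, a ratio of 875 (interval 157 to 34605). ST3GAL1, a sialyltransferase, had 1.86, 0.961 and 2.13 in A2780 control and 457, 434 and 431 in Acis control, a log2 fold change of 7.97 ± 0.16 (SE, adjusted p = 4.17e-25, edgeR). Here and below, the SE was back-calculated from the F statistic of the quasi-likelihood test. Where a group has few counts, as A2780 has here, it understates the counting error of the fold. Both genes are on chromosome 8, where the median over all genes was also above 0. Groups that do not overlap were required for naming these 6 genes, so their separation is no separate result.

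Further start genes were picked after their values were seen, and those that follow encode secreted and matrix proteins. They do not stand for such genes in general, since in the list of matrix genes and their enzymes 8 of 12 tested genes were lower in Acis and 1 was higher. COL12A1, a fibril-associated collagen, had 69.0, 75.9 and 59.7 normalized counts in A2780 control and 5230, 5239 and 5252 in Acis control (log2 fold change 6.25 ± 0.05 SE). COL11A1, a minor fibrillar collagen, had 305, 342 and 329 against 3919, 3942 and 3786 (3.58 ± 0.04). COL3A1, the chain of type III collagen, had 1791, 1842 and 1771 against 3975, 3991 and 3862 (1.13 ± 0.03). The lowest Acis library was above the highest A2780 library in all 3 collagen genes. A further collagen start gene, COL5A2, had a log2 fold change of 0.14 and was not called.

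MMP1, the interstitial collagenase, had 52.2, 64.4 and 58.7 against 1053, 1067 and 1024 (4.16 ± 0.07), and MMP3, stromelysin, had 439, 424 and 453 against 1412, 1421 and 1442 (1.7 ± 0.04). The growth factor VEGFC, which acts on lymphatic vessels, had 33.6, 22.1 and 29.9 against 491, 448 and 422 (3.99 ± 0.11), and FGF10 had 64.3, 78.8 and 91.8 against 632, 698 and 677 (3.1 ± 0.09). PAPPA, a protease that cleaves IGF-binding proteins, had 51.3, 40.4 and 48.0 against 1391, 1344 and 1438 (4.9 ± 0.07). All were called higher by edgeR with groups that did not overlap, and all were picked after their values were seen.

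Other start genes of this kind encode transcription factors and signalling proteins. The homeobox gene NKX2-5, known from the heart, had 20.5, 9.61 and 10.7 in A2780 control and 263, 226 and 248 in Acis control (4.14 ± 0.17, peak fold enrichment 21.5). BARX1 had 0.0, 0.0 and 2.13 against 168, 172 and 159, a ratio of 256 (interval 70.4 to 2118), and MSX2 had 0.0, 0.961 and 1.07 against 36.1, 22.4 and 17.1, a ratio of 38.9 (interval 10.4 to 328). MLKL, the pore-forming protein of necroptosis, had 1.86, 0.0 and 0.0 against 143, 165 and 194, a ratio of 256 (interval 70.4 to 2118). The kinase gene JAK1 had 223, 198 and 214 against 1345, 1393 and 1393 (2.7 ± 0.05), although an A2780 peak lay in its start window. In each of these 5 genes, also picked after their values were seen, every Acis control library was above every A2780 control library.

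A few start genes fell. The type IV collagen genes COL4A5 and COL4A6 start close to each other on opposite strands, and the member between them, chrX:108439478-108440228, had a fold enrichment of 15.7. COL4A5 had 370, 351 and 368 normalized counts in A2780 control and 101, 89.4 and 91.1 in Acis control (log2 fold change -1.95 ± 0.09 SE, adjusted p = 1.49e-16, edgeR). COL4A6 had 84.9, 53.8 and 64.0 against 0.0, 0.0 and 1.14, so A2780 was higher by a ratio of 186 (interval 33.0 to 7389). An A2780 peak lay 799 bp from the member, within the start window of COL4A6.

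HAS2, a hyaluronan synthase on chromosome 8, had 43.8, 65.4 and 49.1 in A2780 control and 0.0, 1.06 and 0.0 in Acis control, a ratio of 145 in favour of A2780 (interval 25.6 to 5754), and the nearest A2780 peak was 685386 bp from the member. IFIT3, an interferon-induced gene, had 256, 266 and 255 against 105, 96.9 and 99.1 (-1.37 ± 0.08, adjusted p = 2.02e-14, edgeR). At IFIT3 the member was weak, with a fold enrichment of 3.18, and an A2780 peak lay 235 bp away.

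Linked genes as a whole showed the same direction with a smaller difference. Of 363 tested, 148 (40.8%) were higher in Acis control and 37 (10.2%) lower, against 6.99% and 12.2% of all tested genes, with a median log2 fold change of 0.487. The share called lower was thus near that of all genes. With no filter on low counts, 173 of the 456 in the table (37.9%) were higher and 48 (10.5%) lower. With distance from the nearest member's summit the share called higher was 64.0% of 100 genes under 1 kb, 38.3% of 128 genes from 1 to 10 kb, 25.9% of 108 genes from 10 to 50 kb and 25.9% of 27 genes beyond, and the share called lower was 6.0%, 12.5%, 10.2% and 14.8%. With the number of linked members it was 32.9% of 252 genes with 1 member, 44.9% of 49 genes with 2 to 3, and 69.4% of 62 genes with 4 or more. Distance and number are related to each other, so these are not separate results.

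Among linked genes with no member at the start, CD36, a receptor for fatty acids, had 0.0, 0.0 and 1.07 normalized counts in A2780 control and 571, 638 and 666 in Acis control, a ratio of 1915 (interval 343 to 75667), and 8 members were linked to it. INHBA, the subunit of activin A, had 0.0, 1.92 and 1.07 against 1066, 1141 and 1132, a ratio of 1138 (interval 389 to 5522). Its member lay 2688 bp inside the gene, and an A2780 peak lay in its start window. TWIST2, a basic helix-loop-helix factor of mesenchymal cells, had 0 counts in all A2780 libraries and 85.9, 111 and 105 in Acis control, at least 103-fold more. HYLS1, a centriole protein gene, had 0 against 47.7, 44.7 and 64.9, at least 53.4-fold more. The lncRNA genes TLR8-AS1 and LINC02024 also had 0 counts in A2780 and were at least 115 and 54.1-fold higher. These 6 were named under the same requirement that the groups do not overlap. Members linked to TWIST2, TLR8-AS1 and LINC02024 lay 33798, 31588 and 87891 bp from their 5' ends, and that of HYLS1 3983 bp.

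PCDH15, a cadherin of sensory hair cells, showed the opposite, with 144, 179 and 159 in A2780 control and 0 counts in Acis control, at least 147-fold less, although its member lay 3382 bp upstream of the start. The lncRNA genes CACNA2D1-AS1, RFPL1S and LINC01091 also fell, with 450, 206 and 716 raw counts over the A2780 control libraries and 2, 3 and 25 over those of Acis control. At PCDH15 and CACNA2D1-AS1 an A2780 peak lay in the start window.

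The genes with the most linked members were not all expressed. CBLN2, a synaptic organizer of the cerebellin family at chr18:72536680-72638521, had 18, and its RNA was 894, 902 and 902 in A2780 control and 2167, 2218 and 2085 in Acis control (log2 fold change 1.26 ± 0.03 SE, adjusted p = 4.57e-22, edgeR). OSGIN2, WDR72 and the lncRNA ENSG00000258837 had 15 each. OSGIN2 had 497, 491 and 488 against 987, 1093 and 1045 (1.08 ± 0.05), and WDR72 had 64.3, 65.4 and 74.7 against 394, 408 and 443 (2.61 ± 0.09). ENSG00000228714, a lncRNA gene with 13 linked members, had 1.86, 0.961 and 4.27 against 73.2, 69.2 and 77.5 (4.92 ± 0.28). LRRC7-AS1 (14 members) and ENSG00000227658 (12) had at most 9.11 normalized counts in any library and were not tested. ENSG00000258837 and ENSG00000278722 (11) were not analysed for RNA.

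Genes inside runs had the largest share of rises. Of 112 genes with their 5' end in a run, 29 were tested, and 24 (82.8%) were higher in Acis control, against 6.99% of all tested genes, 1 lower and 4 not called, with a median log2 fold change of 4.12. With no filter on low counts, 32 of the 43 in the table (74.4%) were higher and 3 lower, against 6.14% and 12.5% of all genes of the table. In 18 of the 21 runs with a tested gene, at least 1 gene was higher. Wide runs with few peaks add many of the 112 genes. The widest, of 6 peaks over 5190 kb, held 18 of them, and the 1 tested there was not called.

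In the chromosome 4 run of 26 peaks, 6 genes were tested and 5 were higher. GUCY1A1 had 27, 25 and 22.4 normalized counts in A2780 control and 696, 725 and 722 in Acis control (log2 fold change 4.83 ± 0.09 SE, adjusted p = 9.76e-26, edgeR). GUCY1B1, the other subunit, had 5.59, 3.84 and 5.33 against 83.8, 77.7 and 103 (4.12 ± 0.23). TDO2 had 2.8, 0.0 and 0.0 against 207, 259 and 198, a ratio of 227 (interval 77.2 to 1103). The lncRNA genes ENSG00000287730 and ENSG00000260244 were the others. Both cyclase subunits therefore rose with the tryptophan enzyme, in libraries that did not overlap.

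In the neighbouring run, PDGFC had 15.9, 24.0 and 23.5 in A2780 control and 829, 861 and 808 in Acis control (5.3 ± 0.1), and GLRB had 0.0, 0.0 and 3.2 against 65.8, 71.3 and 64.9, a ratio of 68.9 (interval 23.2 to 337). IGFBP7 had 0 counts in A2780 control and 43.5, 36.2 and 37.6 in Acis control, with its start peak shared with IGFBP7-AS1. LSAMP had 1.86, 1.92 and 5.33 against 210, 275 and 239 (6.29 ± 0.22). FAM9C on chromosome X had 13.1, 13.5 and 12.8 against 1178, 1390 and 1315 (6.61 ± 0.11), and FILIP1, which encodes a filamin-binding protein, had 4.66, 2.88 and 10.7 against 1136, 1120 and 1122 (7.55 ± 0.12). These run genes were named after their values were seen.

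**Figure D5:**
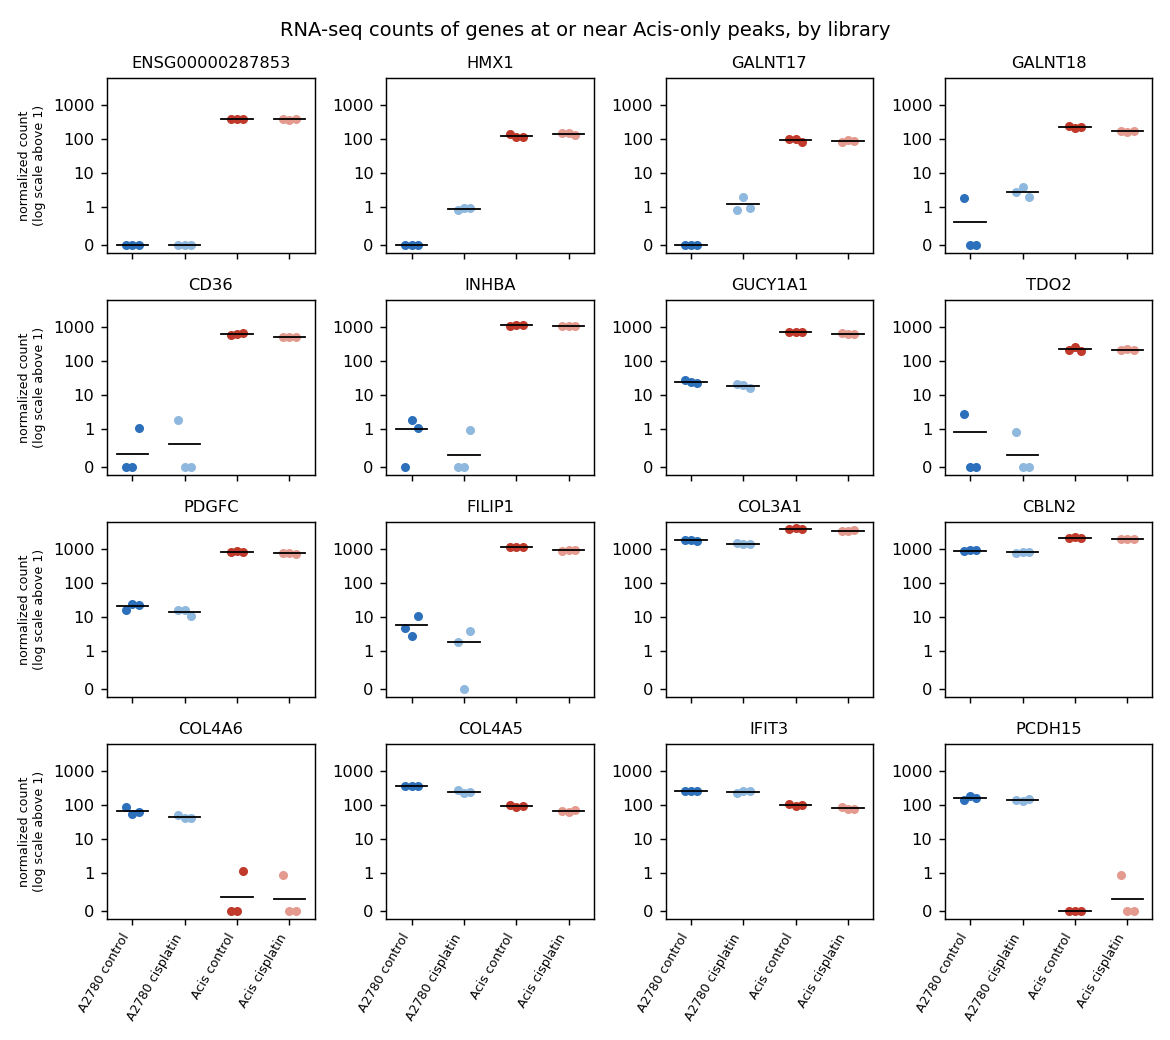
Normalized RNA-seq counts (y axis, log scale above 1 and linear below) of 16 genes at or near Acis-only peaks in each of the 12 libraries, by group, with 3 points a group and a line at the mean. In the 12 genes from ENSG00000287853 to CBLN2 all Acis points lie above all A2780 points, and in COL4A6, COL4A5, IFIT3 and PCDH15 all lie below.

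Gene lists drawn up for this tissue and drug were then read. Their counts stand beside the 6.99% of all tested genes called higher and the 12.2% called lower between the controls. Over 14 lists, 10 genes had a member at the start or as the nearest gene. Of all 15760 tested genes, 363 were linked to a member and 125 had one at the start. At that share a list this short can hold none, so a lack of members in a list is not read as a result. Of the 18 genes of platinum transport, ABC transporters and glutathione, none had one, and of the 16 tested 0 were higher and 2 lower in Acis, which is near the background. No gene of the interferon and MHC list or of the Hippo and TEAD list had one either. Of these lists, 0 of 11 and 0 of 12 tested genes were higher and 6 and 4 lower. IFIT3, the interferon-induced gene with a member at its start described above, was not on the interferon list. Among 14 genes of nucleotide excision repair only ERCC2, a helicase of TFIIH, had a member, 5606 bp upstream, and none of the 14 was called in either direction. ERCC2 had 515, 487 and 463 normalized counts in A2780 control and 798, 742 and 726 in Acis control, a log2 fold change of 0.63 ± 0.05 (SE, adjusted p = 9.82e-11, edgeR), under the fold threshold.

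In the matrix list, COL3A1 was the 1 gene with a member, and 8 of 12 tested genes were lower in Acis while 1 was higher. In the TGF-beta, BMP and Wnt list INHBA was the 1 gene with a member (2 of 14 higher, 3 lower). Of the receptor kinase and MAPK feedback list (3 of 13 higher, 2 lower), DUSP5, SPRY1 and SPRY4, inhibitors of ERK signalling, had members, with log2 fold changes of 0.49 ± 0.11, 0.26 ± 0.03 and 0.31 ± 0.03 that did not reach the fold threshold. NR4A1, an immediate-early receptor gene (its list 5 of 14 higher, 1 lower), had a member at its start and -0.36 ± 0.07, the homeobox gene MEIS1 (1 of 14 higher, 9 lower) had 0.1 ± 0.04, and the integrin gene ITGAV (2 of 11 higher, 5 lower) had -0.28 ± 0.04. In the urogenital list (1 of 3 higher, 1 lower) no gene had a member. A last list holds the genes of the real-time PCR, which were picked on these samples and are no independent evidence of direction. All 7 were higher in Acis control, and 1, RHOV, had a member at its start. At RHOV an A2780 peak also lay within the start window, 284 bp from the member.

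After cisplatin the difference between the lines was much the same in size. Between Acis cisplatin and A2780 cisplatin, 151 linked genes (41.6%) were higher, against 7.28% of all tested genes, and 36 (9.92%) lower, against 11.9%. The median log2 fold change was 0.534. Of the start genes, 73 of 125 were higher and 8 lower. CD36 had 1.87, 0.0 and 0.0 in A2780 cisplatin and 512, 506 and 496 in Acis cisplatin, and INHBA had 0.0, 0.0 and 0.982 against 1041, 1101 and 1066. HMX1 had 0.937, 0.968 and 0.982 against 151, 147 and 132. The groups did not overlap in these genes.

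Few genes responded to cisplatin in Acis, and those near Acis-only peaks were close to the background. Of the linked genes, 3 (0.826%) were higher in Acis cisplatin than in Acis control, against 1.64% of all tested genes, and 2 (0.551%) were lower, against 0.374%. The median log2 fold change of linked genes was -0.06, and of all tested genes 0.0124. As the counts are small the genes are named: the lncRNA genes ENSG00000286207, BARX1-DT and CCND2-AS1 were higher and ENSG00000227292 and the glutamate receptor gene GRIA3 were lower. ENSG00000286207 had 9.55, 7.45 and 6.84 in Acis control and 17.3, 28.5 and 19.6 in Acis cisplatin (1.44 ± 0.29 SE, adjusted p = 0.000566, edgeR), and it also rose in A2780, from 7.46, 9.61 and 7.47 to 40.3, 33.9 and 40.3. BARX1-DT had 15.9, 17.0 and 5.7 in Acis control and 34.5, 25.6 and 19.6 in Acis cisplatin. GRIA3 had 2.12, 3.19 and 1.14 against 0 counts, at the level of the floor.

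Some smaller responses passed the adjusted p alone, and those given here were picked after their values were seen. The share of all tested genes that passed it alone is not given here. ST3GAL1 fell by 0.73 on the log2 scale in Acis after cisplatin, to 258, 266 and 275 (adjusted p = 1.66e-10, edgeR), PAPPA fell by 0.65, to 886, 863 and 899, and MEIS1 fell by 0.59, to 572, 606 and 557. DUSP5 rose by 0.63 ± 0.11, to 182, 152 and 172. The fold enrichment of their members is known from 1 list per condition only, so RNA and accessibility were not compared for these responses.

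The test of interaction asked whether cisplatin changed a gene differently in the 2 lines. The response was more positive in Acis in 51 linked genes (14.0%), against 13.4% of all tested genes, and more negative in 17 (4.68%), against 5.48%, which is near the background in both directions. With scaling by total counts alone the split was 33 to 28, and by DESeq2 it was 28 to 6, so the balance of directions depended on the processing. The count of more negative responses also rested on single libraries. It was 10 without A2780 cisplatin replicate 1, 9 and 11 without A2780 control replicates 2 and 3, 11 and 9 without Acis cisplatin replicates 1 and 2, and 7 and 11 without Acis control replicates 1 and 2. A start gene chosen after its values were seen for the size of its change was PTPN6, a tyrosine phosphatase of blood cells. Its RNA rose in A2780 from 5.59, 14.4 and 7.47 to 60.9, 41.6 and 44.2 and in Acis stood at 79.6, 85.2 and 69.5 without and 71.0, 67.9 and 86.4 with cisplatin, an interaction of -2.46 ± 0.31 (SE, adjusted p = 2.8e-06, edgeR). The A2780 libraries changed several-fold and the Acis libraries overlapped with and without the drug. The member at PTPN6 was weak in Acis control, with a fold enrichment of 2.88, and stood at 5.73 in Acis cisplatin.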

How the data were processed

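The RNA-seq and ATAC-seq samples of both lines were used, untreated or with 200 µM cisplatin for 3 h. Samples of XR-seq were not analysed here. The members, gene lists and letters searched were chosen with earlier results of these data known.

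Per the methods of the authors, single-end stranded RNA-seq reads were aligned with STAR 2.7.3, PCR duplicates were removed with Picard, and genes were counted with HTSeq 0.11.1. The deposited values are raw counts. ATAC-seq reads were trimmed with cutadapt 1.15 and aligned to hg38 with Bowtie2 2.4.1, keeping several alignments per read. Duplicates were removed, as were mitochondrial and chromosome Y reads. The authors kept MACS2 peaks that overlapped by more than 50% between all replicates, so each list is pooled and has no replicate values. The deposited lists give for each peak a fold enrichment over the local background (a ratio), a -log10 p and a -log10 q value, and a score derived from the latter that was not used. Other columns of those lists hold the summit position. Multiple alignments and the DNase step before ATAC-seq can change which weak peaks were called.

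Overlaps were computed with bedtools 2.31.1 and genes taken from GENCODE 44 (GRCh38, the build of the files). Peaks lying within 1 kb of an annotated 5' end of a protein-coding or lncRNA gene were linked to it as start genes, and every peak to the nearest 5' end within 100 kb. Letters were searched in 200 bp about the summit, and shares carry 95% Wilson intervals. Counts were analysed in R 4.3.3 with edgeR 4.0.16 (TMM, default filter on low counts, 4 groups, 12 libraries, quasi-likelihood test, Benjamini-Hochberg adjustment over 15760 genes, common dispersion 0.000304). A gene was called at an adjusted p under 0.05 where its log2 fold change was 1 or more in size. For the interaction only the adjusted p counted. Each SE is the size of the log2 fold change divided by the square root of the F statistic of the test. It is not a separate estimate, and it is too small where a group has few counts. DESeq2 1.42.0 was an alternative. Normalized counts were TMM-scaled to the average library size. Folds against a group with 0 counts used a floor of 3 counts over the group, and those against 1 to 3 counts carry an exact 95% counting interval, both for counting error only. The steps were tested on simulated data.

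The genes named are the 8 with the most linked members, the 6 largest rises and 4 largest falls among called start genes and among other called linked genes (groups not overlapping, mean of 50 or more normalized counts in the higher group), at most 3 genes per list, and those linked to the 10 members of highest -log10 q. Others are stated to be chosen after their values were seen. Same-numbered libraries of different groups correlated from -0.068 to 0.113 in their deviations from the group means, so the numbers were not taken to pair them. In replicate pairs of a group, mean squared differences over genes were 0.73 to 1.53 times the counting noise. All 3 libraries per group were kept as replicates, and an alternative merged the closest pair.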

Additional observations from a re-analysis of the deposited data

Results flagged for a closer look

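The response to cisplatin differed between the lines, by the edgeR test of interaction at an adjusted p under 0.05, in 10 of the 65 named genes that were tested. Over all tested genes 13.4% passed this threshold as more positive in Acis and 5.48% as more negative, so the count is not above the background. The values below are log2 differences, Acis minus A2780, with the response of each line beside them, and the groups hold 3 libraries each.

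Of these 10, COL11A1, COL12A1, ITGAV and COL3A1 had lower RNA after cisplatin in both lines, less so in Acis. The interaction was 0.67 ± 0.08 (SE) in COL11A1 (adjusted p = 1.17e-06, with -0.95 in A2780 and -0.28 in Acis), 0.73 ± 0.15 in COL12A1 (adjusted p = 0.00113, with -1.02 and -0.3), 0.38 ± 0.05 in ITGAV (adjusted p = 7.65e-06, with -0.49 and -0.11) and 0.13 ± 0.04 in COL3A1 (adjusted p = 0.0383, with -0.33 and -0.2). With scaling by total counts alone the adjusted p in COL3A1 was 0.303, and by DESeq2 0.268.

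WDR72 had an interaction of 0.49 ± 0.16 (adjusted p = 0.0344, with -0.58 in A2780 and -0.09 in Acis) and the lncRNA gene ENSG00000254394 one of 0.72 ± 0.20 (adjusted p = 0.0216, with -0.76 and -0.05). By DESeq2 their adjusted p was 0.121 and 0.14. PTPN6 had -2.46 ± 0.31 (adjusted p = 2.8e-06, with 2.4 and -0.06), RHOV -0.75 ± 0.25 (adjusted p = 0.0388, with 1.13 and 0.38) and NR4A1 -0.27 ± 0.09 (adjusted p = 0.0407, with 0.49 and 0.22). RHOV and NR4A1 had an adjusted p of 0.121 and 0.155 by DESeq2. GRIA3 had -4.03 ± 1.27 (adjusted p = 0.0299), but its counts in Acis were at or near 0 and DESeq2 gave 0.11. Groups of 3 libraries were not searched for outlying samples.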

How the results depend on the processing

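The number of Acis-only peaks stayed within 1.5 times of 2145 under all 7 alternatives tried (1457 to 2400). The lowest, with a -log10 q of at least 20 in both Acis lists, was chosen after seeing the data. The AP-1 share of 9.0% over all members was 4.48% in windows of 100 bp and 16.9% in windows of 400 bp, and the CTCF core share of 3.87% was 2.66% and 6.34%, as fewer or more letters were searched. It was 5.73% among members of the 20000 highest -log10 q of each list, the cause was not tested. Requiring at least 50 counts per library on average, which tests fewer genes, gave 98 linked genes higher and 15 lower in the controls, 95 and 13 after cisplatin, 3 start genes lower, and 0 and 0 linked genes changed by cisplatin in Acis. Start genes lower in Acis numbered 5 among protein-coding genes, 3 with no A2780 peak within 1 kb and 17 with the 20000 highest of each list. For cisplatin in Acis, linked genes higher were 1 by DESeq2 and 0 among protein-coding genes, and linked genes lower were 0 by DESeq2, 4 with no filter, and 1 each with the groups compared alone, protein-coding genes or the 20000 highest. For the interaction, DESeq2 gave 28 more positive and 6 more negative, total counts alone 33 and 28, no filter 10 more negative, and merging the closest pair of replicates, chosen after seeing the data, 9 more negative. The causes were not tested.

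With each library left out in turn, start genes were 73 to 76 higher and 7 to 8 lower. Linked genes were 147 to 151 higher and 36 to 43 lower in the controls, 149 to 154 and 35 to 42 after cisplatin, 1 to 4 and 0 to 3 for cisplatin in Acis, and 37 to 51 and 7 to 16 for the interaction. The replicate number taken as a block, the replicate block, gave 75 and 8 start genes and 148 and 37 linked genes in the controls, and moved no count by more than 1.5 times (21 more negative interactions was its largest change). The samples share only a number, and not every library correlated best with its own number. The fit to the groups compared alone is the same as the fit to all groups for the interaction and has no value of its own. Of the log2 fold changes of named genes between the controls, none changed its call or direction under the 8 other settings with all libraries where a value was given. ENSG00000286207, at -0.04, turned to 0.08 without A2780 control replicate 2 and to 0.04 without Acis control replicate 3. Low counts limit the lncRNA genes most.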
